A study of Hypsibius exemplaris with 24 samples.

Results

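The end of a bleomycin exposure was compared with a water control in whole *Hypsibius exemplaris*, a freshwater tardigrade. The comparison uses 6 of the 24 RNA libraries of a time series, 3 from animals frozen at once after 24 h in 100 µM bleomycin (the 0 h group) and 3 from animals kept for the same 24 h in Volvic mineral water. They were chosen by their labels, with no measured value used, though earlier results of these data were known. Each library came from a pool of 50 animals. The labels number the pools as replicates and do not say whether they came from separate cultures, so p-values measure only the spread between pools. In the main fit that spread is estimated over the pools of all 24 libraries, later times included. Neither group was washed, moved to agar or given new food before freezing, which sets this contrast apart from those with later times. The labels name no genotype, strain or age, and the stock animals were kept on agar under the same water with the alga *Chlorella vulgaris*.

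Bleomycin is an antibiotic that binds metal ions and, with oxygen, breaks strands of DNA. It is used in the laboratory to imitate the DNA breaks of ionizing radiation, which tardigrades survive at doses that kill most animals. In animals in general, such breaks are met by repair of the ends, by recombination, and by a change in transcription. The table of levels does not pair its locus identifiers with gene names, so roles could not be given, transcripts are described by their level in each library, and the label of whole body was not checked against tissue markers. In pools of whole animals, fewer cells of a type and less RNA per cell cannot be told apart.

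Levels are TPM (a relative abundance corrected for transcript length, with the same total in every library) divided by a scale factor per library, called scaled TPM. Sequencing depth cannot be read from TPM, so it is unknown and no counting interval can be given. Transcripts listed above 0 numbered 16408, 15829 and 16630 in control replicates 1 to 3 and 16343, 14984 and 15851 in the 0 h libraries. The difference of these numbers was within the spread of the libraries (exact two-sided permutation test, p = 0.3, where 0.1 is the smallest possible with 3 against 3 libraries). The scale factors of the 6 libraries ranged from 1.07 to 1.18. The 100 highest transcripts of each library held 22.5%, 23.5% and 22.4% of the TPM in the controls and 24.6%, 23.4% and 24.5% at 0 h, with overlap between control replicate 2 and 0 h replicate 2 (exact two-sided permutation test, p = 0.2). For the 20 highest the exact permutation p was 0.7. For the 1000 highest it was 0.1, the smallest possible, without overlap.

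Control replicate 2 stood apart from the other controls. Across the 16490 transcripts tested, which are not independent replicates, its Pearson correlation was 0.922 with control replicate 1 and 0.898 with control replicate 3, whereas those 2 correlated at 0.960. With the 0 h libraries it correlated at 0.933, 0.920 and 0.907. Bleomycin replicate 1 was thus closer to it than either control was. The control libraries other than replicate 2 correlated with the 0 h libraries at 0.862 to 0.907, and the 0 h libraries with each other at 0.929 to 0.946.

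The low values of control replicate 2 were counted in the same way for every library. A transcript was called low in a library when it lay at least 2 log2 units below the other libraries of the group, both of which were at 10 scaled TPM or more. There were 253 such transcripts in control replicate 2, against 4 and 5 in control replicates 1 and 3 and 12, 63 and 24 in the 0 h libraries. In the opposite direction, 14 transcripts were high in control replicate 2 alone, at 10 scaled TPM or more there. This compares with 23 and 58 in control replicates 1 and 3 and 22, 40 and 68 in the 0 h libraries. The 253 transcripts had a median level of 35.4 scaled TPM in control replicate 1, 0.852 in replicate 2 and 55.1 in replicate 3. At 0 h their medians were 1.70, 0.533 and 1.98, so that control replicate 2 lay among the bleomycin libraries. In the libraries frozen 1 h later, after the wash and the move to agar with food, the medians were 12.0, 12.9 and 18.6. These transcripts were chosen by their levels in the controls, so the control medians are a description.

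A second view left each library out in turn and took the transcripts that changed at least 4-fold between the other libraries of the groups. The left-out library had no part in this choice. With control replicate 2 left out, 381 transcripts fell at least 4-fold, and in control replicate 2 itself the median share of that fall already present was 0.894 (quartiles 0.594 and 1.07). Of the 381, 314 (82.4%) had a share of at least 0.5. For the 111 rises chosen in the same way the median share in control replicate 2 was -0.03 (quartiles -0.15 and 0.09), that is, the library was at the level of the other controls. With control replicate 1 left out there were 76 falls and 112 rises, with median shares of -0.09 and 0.05. With control replicate 3 left out there were 97 falls and 108 rises, with median shares of -0.03 and 0.05. Control replicate 2 therefore had the low levels of the 0 h group for most large falls chosen without it, but not its high levels for most large rises. Among the 0 h libraries, replicate 1 held a median share of 0.678 of the falls of the other libraries, and replicates 2 and 3 held 1.00 and 0.975. For rises these shares were 0.927, 0.991 and 1.02.

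**Figure D1:**
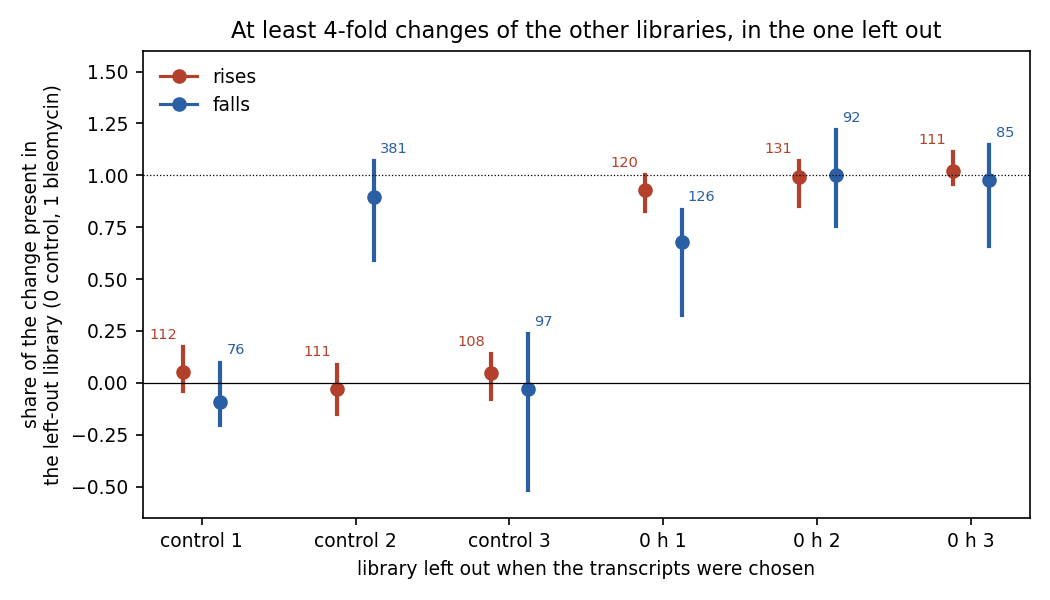
Share of a change of at least 4-fold (y axis, 0 is the level of the control libraries and 1 that of the bleomycin libraries) that is present in a library left out of the choice of transcripts (x axis). Points are medians, bars run between quartiles, numbers give the transcripts, red marks rises and blue falls. In control replicate 2 the falls have a median share of 0.894 and the rises one of -0.03.

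The first question was which transcripts were higher or lower in the bleomycin group, tested across all transcripts with limma and Benjamini-Hochberg adjustment at 0.05. In the fit to all 24 libraries 1298 of 16490 transcripts (7.87%) were called, 619 higher at 0 h (3.75%) and 679 lower (4.12%). Fitted to the 6 libraries alone, with no spread borrowed from other times, 684 (4.15%) were called, 468 higher (2.84%) and 216 lower (1.31%). Without control replicate 2 the rises numbered 607 (3.68%) and the falls 1095 (6.64%), and within the 6 libraries alone its removal changed the split to 531 higher and 762 lower. The number of rises differed little with this library and the number of falls much more, with 496 of the 619 rises and 570 of the 679 falls called without it too. Without 0 h replicate 1 the count of 1298 changed little, to 1285. Leaving out another library lowered the count to 618 (control replicate 1), 695 (control replicate 3), 737 (0 h replicate 2) or 702 (0 h replicate 3). With quality weights per library, where control replicate 1 received a weight of 7.99 against 0.434 for control replicate 2, it was 4811.

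Calls were then followed transcript by transcript. Of the 619 rises, 378 were also called in the 6 libraries alone, and 241 (38.9%) were called there and with each of the 6 libraries left out in turn. Of the 679 falls, 183 were also called in the 6 libraries alone, and 108 (15.9%) passed all 7 refits. Most of these refits included control replicate 2, with its low values. In the 6 libraries alone without it, 397 of the 619 rises (64.1%) and 419 of the 679 falls (61.7%) were also called. The 241 rises had a median log2 fold change of 1.91, on the log2(scaled TPM + 1) scale, which understates the change of low transcripts. Their median levels were 21.3 scaled TPM in the control and 98.3 at 0 h, and 30 of them rose at least 16-fold. All 30 rises of at least 16-fold among the 619 were thus among the 241. The 108 falls had a median log2 fold change of -2.30, from a median level of 39.8 to 5.64 scaled TPM, and 11 of the 42 falls of at least 16-fold were among them. Over all transcripts tested the median log2 fold change was -0.03.

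The rises were alike in the 3 bleomycin libraries. Over the 619 transcripts the median distance from the control mean was 1.10, 1.30 and 1.37 log2 units in 0 h replicates 1 to 3, and -0.02, 0.01 and 0.00 in the controls. The falls were less even among the controls, with medians of 0.14, -0.44 and 0.36 log2 units in control replicates 1 to 3 and -1.23, -1.64 and -1.59 at 0 h. As a share of all TPM, the 679 fallen transcripts held 5.29%, 3.53% and 6.69% in the controls and 1.91%, 1.49% and 1.34% at 0 h. The 619 risen ones held 4.41%, 4.57% and 4.56% in the controls and 10.1%, 10.8% and 10.9% at 0 h. Both sets were chosen on this contrast, so these values describe them and carry no test. Groups without overlap were common: 2169 transcripts (13.2%) were higher in every 0 h library than in any control, and 2217 (13.4%) lower in every one. With 3 libraries per group some of this arises by chance, so a lack of overlap alone says little.

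**Figure D2:**
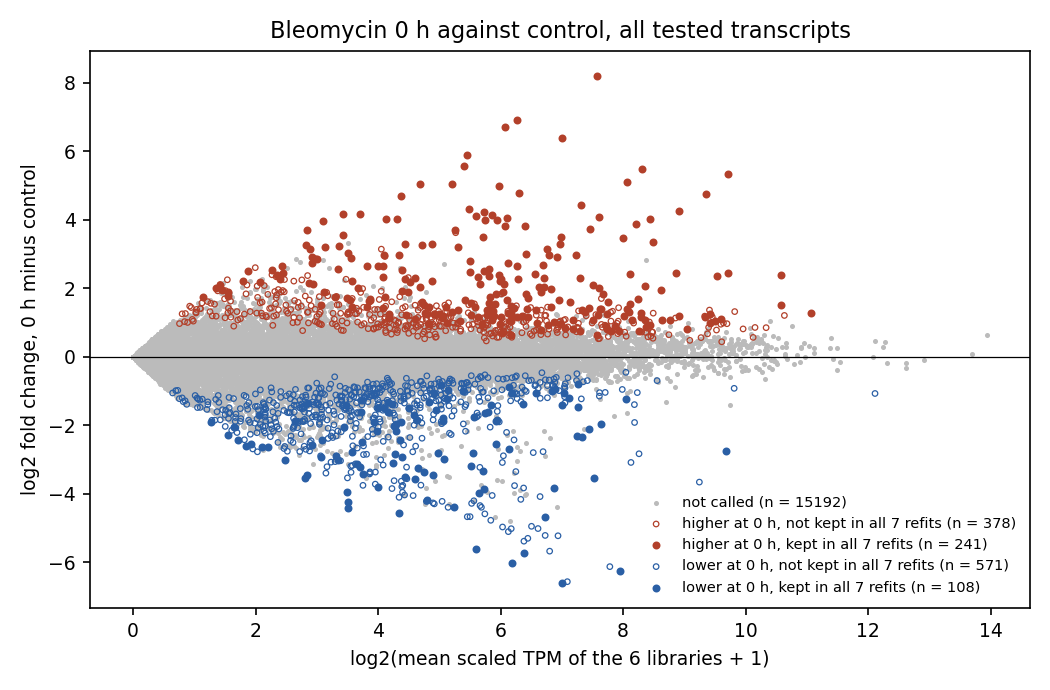
Log2 fold change at 0 h against control (y axis) by log2 of the mean scaled TPM of the 6 libraries plus 1 (x axis) for 16490 transcripts. Red and blue mark calls higher and lower at 0 h, filled where the call held in the 6 libraries alone and with each of the 6 left out (241 and 108). All 30 rises of at least 16-fold are filled, against 11 of the 42 falls of that size.

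The balance of rises and falls differed between levels. Among the 1624 transcripts with a mean of 100 to 1000 scaled TPM over the 6 libraries, 150 (9.24%) were called higher and 60 (3.69%) lower. Among the 93 transcripts of 1000 and over, 7 were higher and 1 lower. From 10 to 100 the counts were 315 higher and 375 lower of 7279, and from 1 to 10 they were 138 and 235 of 5570. Under 1 scaled TPM, 9 rose and 8 fell of 1924. The excess of rises between 100 and 1000 held in the 6 libraries alone, with 182 higher and 38 lower, and without control replicate 2, with 152 and 67. It was also present with unscaled TPM, at 137 and 69, and with quantile normalization, at 161 and 86. At 1000 and over quantile normalization gave 4 and 4. The excess of falls below 100 depended on the fit. From 10 to 100 it turned to 232 higher and 146 lower in the 6 libraries alone and to 419 and 327 with quantile normalization, and was 315 and 484 without control replicate 2. From 1 to 10 it turned in the 6 libraries alone, to 41 higher and 30 lower, and was 130 and 510 without control replicate 2. The fit is also less exact there, with a median standard error of 0.41 log2 units from 1 to 10 scaled TPM against 0.22 from 100 to 1000.

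**Figure D3:**
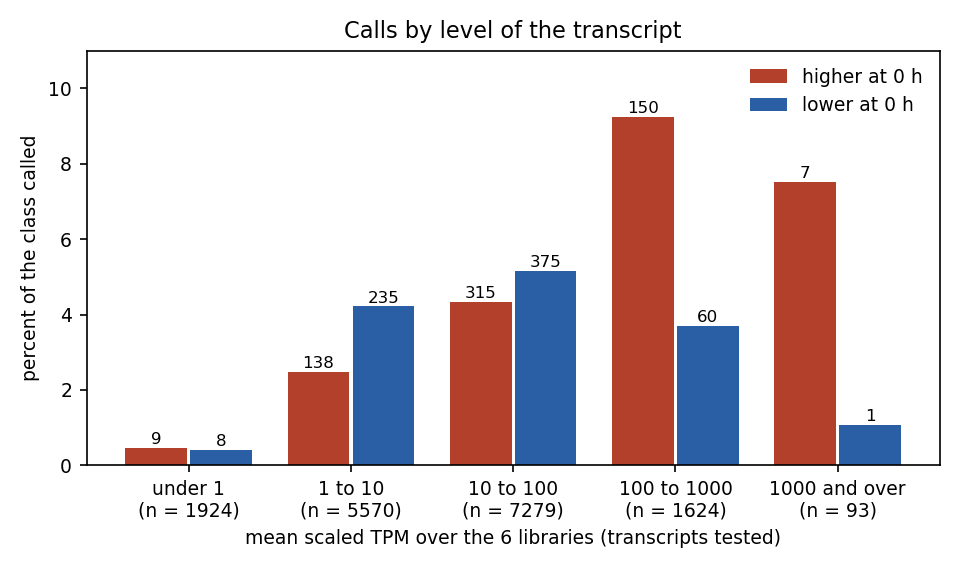
Percent of the transcripts of each level class (x axis, mean scaled TPM over the 6 libraries) called higher (red) or lower (blue) at 0 h, with the number of calls above each bar. At 100 to 1000 scaled TPM 150 were higher and 60 lower, at 1 to 10 scaled TPM 138 were higher and 235 lower.

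Among called transcripts, the largest gains in deposited TPM were those of BV898_15239 and BV898_02951, both already abundant in the control. In control replicates 1 to 3 BV898_15239 had 456.7, 459.7 and 555 scaled TPM, and at 0 h it had 2728, 2250 and 2739.6. Its 3 bleomycin libraries lay far above all controls, and control replicate 2 was level with replicate 1. In deposited TPM its mean rose from 569.8 ± 71.7 to 2783 ± 253 (SD, n = 3 each). On the log2 scale it rose by 2.39 ± 0.25 (SE; limma, adjusted p = 1.35e-06). BV898_02951 was at 1388, 1159 and 1245 scaled TPM in the controls and 3269, 2879 and 2978 at 0 h, again with no overlap. It rose by 1.27 ± 0.21 log2 units (SE; limma, adjusted p = 6.24e-04), and it was called in the 6 libraries alone and without control replicate 2 as well.

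By fold change, the leading rises were transcripts at or near 0 in every control. BV898_10457 was at 1.04, 0 and 0 scaled TPM in the controls and 284, 409.9 and 445 at 0 h. BV898_20063 was at 0.855, 0 and 0 in the controls and 119, 205 and 129 at 0 h. Both had their highest control value in replicate 1, and control replicate 2 listed both at 0. They rose by 8.20 ± 0.34 and 6.91 ± 0.33 log2 units (SE; limma, adjusted p = 5.08e-13 and 8.60e-12). These sizes depend on the pseudocount, and with 5 in place of 1 they were 6.15 and 4.85. Fitted to the 6 libraries alone the adjusted p was 1.16e-05 and 3.95e-05 (limma). Locus BV898_14257, included because outside knowledge links it to the DNA damage response, though its identity was not checked, was at 9.03, 13.2 and 15.7 in the controls and 182, 398 and 328 at 0 h. Without control replicate 2 its adjusted p was 1.67e-08 (limma).

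Switches from a listed 0 were few. There were 14 transcripts listed at 0 in all controls and at 1 scaled TPM or more in every 0 h library, of which 11 were called higher. Their means at 0 h reached at most 15.1 scaled TPM. In the other direction 22 transcripts were listed at 0 in all 0 h libraries and at 1 or more in every control, of which 18 were called lower, with control means of up to 270.3. For 8 of the 22, control replicate 2 was under 0.5 times the lower of the other controls. Both sets were chosen on this contrast, which favours their calls, so the counts called describe them and carry no test. Of all transcripts tested, 3.75% were called higher and 4.12% lower. A value of 0 may mean that the estimation failed, not that the transcript was absent.

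Among called transcripts, the largest losses in deposited TPM were those of BV898_01079 and BV898_04117. BV898_01079 was at 5641, 5699 and 6390 scaled TPM in the controls and 4258, 2418 and 2152 at 0 h. The controls were close together here, replicate 2 included, and 0 h replicate 1 was the nearest to them. The change was -1.07 ± 0.26 log2 units (SE; limma, adjusted p = 0.0140). The call was lost without control replicate 3 (limma, adjusted p = 0.0608), without 0 h replicate 2 (0.0690), without 0 h replicate 3 (0.0873), and in the 6 libraries alone without control replicate 2 (0.0615). BV898_04117 was at 1465, 1820 and 1004 in the controls, highest in replicate 2, and at 282, 203 and 148 at 0 h. It fell by 2.76 on the log2 scale (SE 0.55; limma, adjusted p = 0.00369), and was called under all 18 alternatives.

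By fold change, the leading falls that were also called in the 6 libraries alone were those of BV898_01325 and BV898_02267. BV898_01325 was at 216, 119.9 and 419 scaled TPM in the controls and 2.24, 0.145 and 2.31 at 0 h. BV898_02267 was at 413, 45.5 and 1006 in the controls and 3.53, 1.26 and 3.27 at 0 h. Control replicate 2 was the lowest control for both, but it still lay far above every bleomycin library. The changes were -6.59 ± 0.54 and -6.25 ± 0.72 log2 units (SE; limma, adjusted p = 4.07e-08 and 9.68e-06). Leaving out control replicate 2 moved BV898_02267 to -7.52, and leaving out control replicate 3 moved it to -5.30. A pseudocount of 5 in place of 1 gave -5.13 for BV898_01325 and -5.19 for BV898_02267. In the 6 libraries alone the adjusted p was 5.89e-04 for BV898_01325 and 0.0436 for BV898_02267 (limma).

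Among the 253 transcripts low in control replicate 2, 98 (38.7%) were called lower at 0 h in the fit to all libraries, against 4.12% of all transcripts. In the 6 libraries alone 10 (3.95%) were, against 1.31%, and without control replicate 2 it was 207 (81.8%), against 6.64%. None was called higher in the fit to all libraries or without control replicate 2. The choice of the set favours calls lower over calls higher. That choice required at least 10 scaled TPM in control replicates 1 and 3, unlike for all transcripts, so the shares called lower only describe these transcripts. All 3 bleomycin libraries lay at least 2 log2 units below control replicates 1 and 3 for 170 of them (67.2%). The same held for 301 of all transcripts tested (1.83%), and for 219 (2.58%) of the 8481 with at least 10 scaled TPM in both of those controls. The pair with the highest level in those controls, among those called and without overlap, were BV898_03573 and BV898_13342. BV898_03573 was at 1292, 288 and 1825 scaled TPM in the controls and 123, 41.2 and 63.8 at 0 h. BV898_13342 was at 609.6, 119 and 927 in the controls and 85.3, 41.4 and 50.6 at 0 h. For both, control replicate 2 lay between the other controls and the bleomycin libraries. Their log2 fold changes were -3.66 and -2.83, and the calls were lost in the 6 libraries alone (limma, adjusted p = 0.0649 and 0.117). Without control replicate 2 the changes were -4.46 and -3.71 (limma, adjusted p = 4.61e-08 and 3.01e-06), and without control replicate 3 that of BV898_13342 was -2.24. The reason for the low values of this library was not tested.

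**Figure D4:**
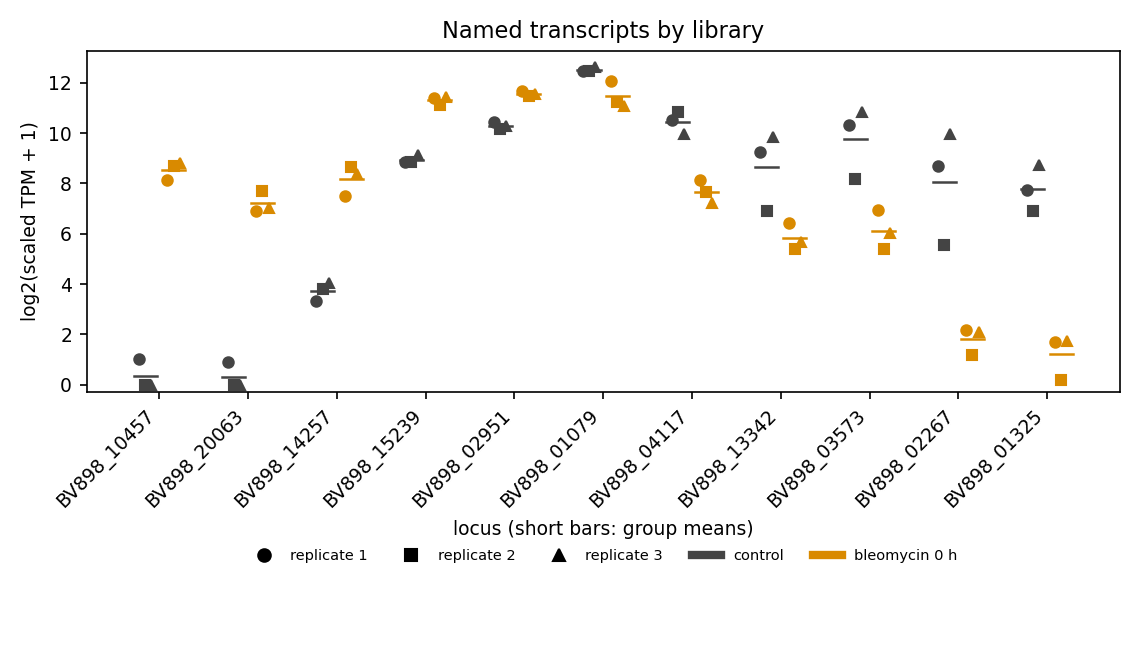
Levels of the named transcripts in each library, as log2(scaled TPM + 1), with controls in grey, bleomycin 0 h in orange, a marker shape per replicate and a short bar at each group mean. Control replicate 2 (grey squares) is level with the other controls for the rises and below them for BV898_13342, BV898_03573, BV898_02267 and BV898_01325.

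Risen loci were followed by risen loci more often than the share of risen loci overall. Summed per locus, 663 of 15820 loci were called higher (4.19%) and 729 lower (4.61%). Of the 564 risen loci whose next number was also tested, 101 (17.9%) were followed by another risen locus, and 15 (2.66%) by a fallen one. Of the 631 fallen loci with a tested next number, 65 (10.3%) were followed by another fallen locus and 30 (4.75%) by a risen one. For rises the share was 17.6% in the 6 libraries alone and 17.1% without control replicate 2. For falls it was 6.05% and 15.3% in those fits, where 1.83% and 7.11% of all loci were called lower. The table gives no positions, so whether consecutive numbers lie side by side on the genome was not checked, and similar loci may share reads, whose division between them is estimated.

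The risen loci formed 6 runs of 4 or more consecutive numbers, with 25 loci in all, of which 24 were also called in the 6 libraries alone. The longest run, named after its values were seen, was BV898_12216 to BV898_12220. BV898_12216 was at 6.04, 5.87 and 7.49 scaled TPM in the controls and 45.1, 77.9 and 87.5 at 0 h. BV898_12219 was at 1.92, 0 and 0.289 in the controls and 35.2, 122 and 89.5 at 0 h. In both, 0 h replicate 1 was the lowest of the bleomycin libraries and still above every control. The log2 fold changes along the run were 3.20, 2.98, 3.28, 5.57 and 1.10, and that of the next locus was 0.06 (limma, adjusted p = 0.941). The only run of 4 fallen loci was BV898_01325 to BV898_01328, with log2 fold changes of -6.59, -3.82, -3.11 and -1.39. Its second locus was at 199, 152 and 297 in the controls and 27.4, 9.98 and 9.40 at 0 h. Its last was low throughout, at 2.09, 1.41 and 3.26 in the controls, and was not called in the 6 libraries alone (limma, adjusted p = 0.0733).

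**Figure D5:**
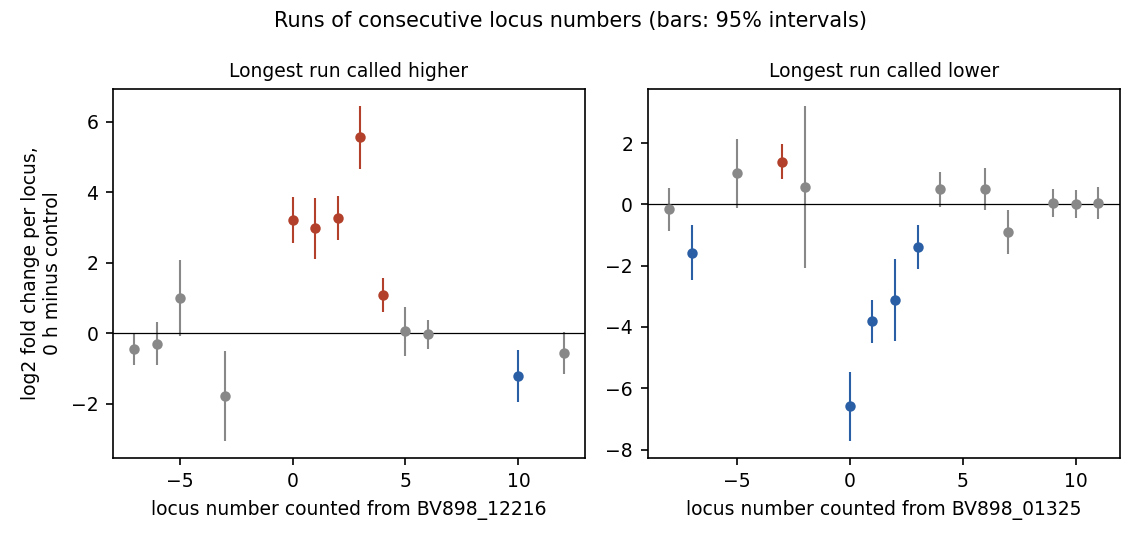
Log2 fold change per locus at 0 h against control (y axis, bars are 95% intervals of the fit) by locus number counted from the first locus of the longest run called higher (left) and lower (right). Red and blue mark calls higher and lower, grey loci were not called, and gaps are numbers not tested. The risen run goes from 3.20 through 5.57 to 1.10, and the next locus is at 0.06.

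Few changes of isoform share were called. Of 916 isoforms of 432 loci tested for a change of their share within the locus, 8 isoforms of 4 loci were called (0.873%). None was called in the 6 libraries alone or without control replicate 2 (limma, 62 and 76 at an unadjusted p under 0.05, against 83 in the fit to all libraries). BV898_02685 had the largest change. Its transcript t01 was at 0, 0 and 2.99 scaled TPM in the controls and 12.6, 22.0 and 8.85 at 0 h, and t02 was at 7.75, 10.5 and 4.86 in the controls and 0, 0 and 6.72 at 0 h. The share of t01 did not overlap between the groups, with 0%, 0% and 38.1% in the controls and 100%, 100% and 56.8% at 0 h. In BV898_01081, t02 held 81.2%, 100% and 73.0% of the locus in the controls, at 22.2, 7.85 and 32.3 scaled TPM, and was listed at 0 in all 0 h libraries. The adjusted p of these share changes was 0.0329 and 0.0134 in the fit to all libraries, and 0.432 and 0.260 in the 6 libraries alone (limma). How reads were divided between isoforms is an estimate, so these shares are uncertain.

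The width of the 95% intervals varied with level. On the log2(scaled TPM + 1) scale the interval of the change lay within 2-fold in either direction for 7088 transcripts (43.0%). Of these, 1783 had a mean under 10 scaled TPM, where that scale compresses the change and the interval does not limit the fold itself, and 132 of the transcripts tested were listed at 0 in all 6 libraries. Among the 8996 with a mean of 10 or more, 5305 (59.0%) had such an interval. Over all transcripts tested, the interval lay wholly beyond 2-fold for 161 rises and 215 falls. A group of 8152 transcripts (49.4%) was not called and had an interval that was not within 2-fold.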

How the data were processed

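The authors deposited 1 table of TPM per transcript, 20853 transcripts of 19939 loci in 24 libraries. The tools listed, per the submitters' processing notes and without roles, are RSEM 1.2.26, Bowtie2 2.2.9, DESeq2 1.22.2 and FastQC 0.11.3. Build and annotation of the genome: not given in the sources used here. Columns were matched to samples by the submitters' descriptions, and no 2 libraries held identical values.

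TPM were divided by each library's median ratio to the geometric mean over the 12190 transcripts above 0 in all 24 libraries. A transcript was tested if 3 or more libraries had 1 TPM or more, and log2(scaled TPM + 1) was fitted with limma 3.58.1 in R 4.3.3, with a mean per group over all 24 libraries, trended and robust eBayes, two-sided tests, and Benjamini-Hochberg adjustment at 0.05. TPM are not counts, so no count model was used. Loci were tested as summed TPM. Isoform shares were tested as log2 of the isoform over the other isoforms of its locus, each plus 1, where a locus had 2 or more tested isoforms and averaged 10 TPM or more over the 6 libraries. Intervals are 95% intervals of the fit and carry the spread between libraries only. The procedure was tested on simulated data with the same spread for every transcript and library. That simulation did not imitate the low values of control replicate 2. Figures were drawn with matplotlib 3.10.9.

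Named transcripts are the 2 largest rises and 2 largest falls by log2 fold change (also called in the 6 libraries alone), by difference in deposited TPM and by isoform share, and the 2 highest of those low in control replicate 2, each called, without overlap and with a mean of 5 scaled TPM or more in one group; locus BV898_14257 was added. The groups, lists and tests were chosen with earlier results of these data known. Lists by product name could not be matched, since the table holds no names, and 0 of them were used. The labels give no batch or date, so no values within batches could be given. The left-out shares, the calls followed through 7 refits, and level classes and neighbouring numbers under other fits were chosen after seeing the data.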

Additional observations from a re-analysis of the deposited data

How the results depend on the processing

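The 11 transcripts named by level (the 4 isoforms named by share were followed only in the fits given above) kept their direction under all 18 alternatives, and 192 of these values kept the call; the 6 that lost it are those of BV898_01079, BV898_03573 and BV898_13342 given above. The 6 libraries alone gave 684 transcripts (216 lower), 831 loci and 0 isoform shares. Quality weights gave 4811 transcripts, 2135 higher and 2676 lower. Leaving out 1 library gave 618 to 1702 transcripts (341 to 624 higher, 277 to 1095 lower), 655 to 1770 loci and 0 to 10 isoform shares. The loci numbered 655 and 729 without control replicates 1 and 3, and 761 and 722 without 0 h replicates 2 and 3. With the 20 or 1000 highest transcripts in place of 100, the difference in their TPM share moved from 1.36 to 0.140 or 3.69 percentage points. With a difference of 1 log2 unit, 507 transcripts were low in control replicate 2. For falls, the share with a fallen neighbour was 18.1% for numbers up to 3 apart, a span with more chances of a call than the next number alone (10.3%). In that fit 4.61% of all loci were called lower. For the next number alone it was 6.05% in the 6 libraries alone, where 1.83% were called lower. The 20 and 1000 highest transcripts, the cut of 1 log2 unit and the wider span of numbers are other measures. A looser cut or wider span admits more by definition. The cause of the other moves was not tested, except that fewer libraries were fitted in some. Quantile normalization turned the split to 796 higher and 631 lower.

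The labels do not say that replicate numbers mark a shared source, and the deviations of same-numbered libraries correlated at 0.0631, 0.166 and 0.0909, each library being closest to its own number. With the replicate block 1294 transcripts, 1399 loci and 4 isoform shares were called. Depth is unknown, so no detection limit can be given.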

Other observations

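Of the 20 transcripts with the highest mean over the 6 libraries, chosen after their values were seen, 2 (10%) were called, BV898_02951 higher and BV898_01079 lower, against 7.87% of all transcripts tested. Their log2 fold changes ranged from -1.07 to 1.27. The highest of all, BV898_16263, was at 10263, 13269 and 13309 scaled TPM in the controls and 17634, 20364 and 19541 at 0 h, without overlap. This was a larger gain than that of any called transcript, but it was not called (log2 fold change 0.65, limma, adjusted p = 0.145).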
